A study of Mus musculus with 97 samples.

Results

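G2 cells of an untreated mouse embryonic stem (ES) cell line were compared with late G1 cells of the same line across every expressed gene. The 6 libraries were chosen by their labels, 3 of untreated G2 and 3 of untreated late G1, among 18 RNA-seq libraries and 97 samples of all kinds in the series. The line, Sox2-AID, carries Sox2 fused to an auxin-inducible degron, so that adding auxin causes the protein to be degraded. Its G2 and late G1 cells got no auxin here, but they carry the tagged allele, and by the labels the groups differ only in the phase they were sorted into. For comparison, 3 libraries each of G2 and late G1 cells that had 0.5 mM auxin for 3 h, and 3 of untreated early G1, are used below. All were grown on gelatine with serum and LIF and sorted into phases by GFP and by Hoechst, a DNA dye added at 20 µM for the final 20 min. The labels give neither the meaning of the GFP signal nor how cells in S phase or mitosis were kept out. The labels name 1 line and do not say whether the 3 libraries of a group came from separate cultures, so p-values measure the spread between these libraries, which may be technical.

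Progress through the cycle runs on waves of transcription. In G1, cyclin D and cyclin E kinases release E2F factors from the retinoblastoma proteins, and E2F targets for DNA replication are made. Replication-dependent histone mRNAs accumulate with DNA synthesis and are destroyed when it ends. In G2, the B-MYB, MuvB and FOXM1 complexes activate genes of mitosis, many through a promoter element called the CHR (cell cycle genes homology region) beside CCAAT boxes bound by NF-Y. Mouse ES cells are known for a short G1 with little variation of several of these regulators.

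Total counts were 26036310 to 31246791 per G2 library and 24841963 to 35787324 per late G1 library. Between libraries of a group, counts of genes with at least 20 reads differed by a chi-square of 24.1 to 53.8 per degree of freedom, far above counting error. Values below are CPM, counts relative to a library's TMM-scaled total. They are shares of a library, so RNA per cell was not measured, and a higher level in each cell cannot be told apart from more cells at a stage with a high level. The 8 ES cell markers checked were present in both phases, from 39.5, 53.9 and 47.8 CPM in G2 and 40.5, 68 and 50.6 CPM in late G1 for Utf1 to 1246, 1037 and 1114 CPM in G2 and 1231, 971 and 1157 CPM in late G1 for Dppa5a. On the second principal component replicate 3 lay above the other libraries of its untreated group, at 31.8 among the early G1 libraries, 10.7 among those of late G1 and 17.7 among those of G2, although by the chi-square replicates 2 and 3 were the closest pair in G2 and in late G1.

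Of 37620 genes in the table, 16011 passed the filter on low counts. At a Benjamini-Hochberg adjusted p under 0.05, 436 of them were higher in G2 than in late G1 (2.72% of genes tested) and 371 were lower (2.32%), together 5.04%. Of these, 99 and 80 differed at least 2-fold. The 3 G2 and the 3 late G1 libraries did not overlap in CPM for 805 of the 807 genes called (all but Malat1 and Zscan4c), against 20.7% of all genes tested (10.9% with G2 higher and 9.79% with G2 lower). Without replicate 3 of every untreated phase, 280 were higher and 214 lower. Leaving out 1 library gave 249 to 358 higher and 187 to 277 lower genes. Calls higher in G2 fell most without late G1 replicate 2 (249), G2 replicate 2 (261) or late G1 replicate 1 (290), and calls lower in G2 without G2 replicate 1 (187), late G1 replicate 2 (196) or G2 replicate 2 (204). With the replicate number as a block, 1874 genes were higher and 2021 lower (11.7% and 12.6% of genes tested, 24.3% in all), and all 807 genes were among them. Libraries of the same number deviated together across phases. The fit without the block ignores this pairing, so a gene not called in it is not shown to be unchanged.

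Some lists of cell-cycle genes had the highest and lowest medians, as the plot of list members shows, but others did not. Medians of primitive endoderm (0.69) and 2-cell-like markers (0.59) lay above that of mitotic kinases (0.43). The median of cholesterol synthesis (-0.45) lay below that of the replication fork (-0.35). Over 7 lists of G2 and mitotic genes, 77 of 155 genes tested (49.7%) were higher in G2 and 2 were lower. Their median log2 fold change was 0.34, beside -0.0095 over all genes tested. Over 4 lists of G1/S genes (G1 cyclins, E2f factors, origin licensing and the replication fork), 3 of 89 were higher and 30 were lower (33.7%), with a median of -0.27. Of the 807 genes called, 335 higher and 263 lower ones were in none of the lists. Counts for each list below stand against 2.72% higher and 2.32% lower over all genes tested, or 11.7% and 12.6% under the block.

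**Figure D1:**
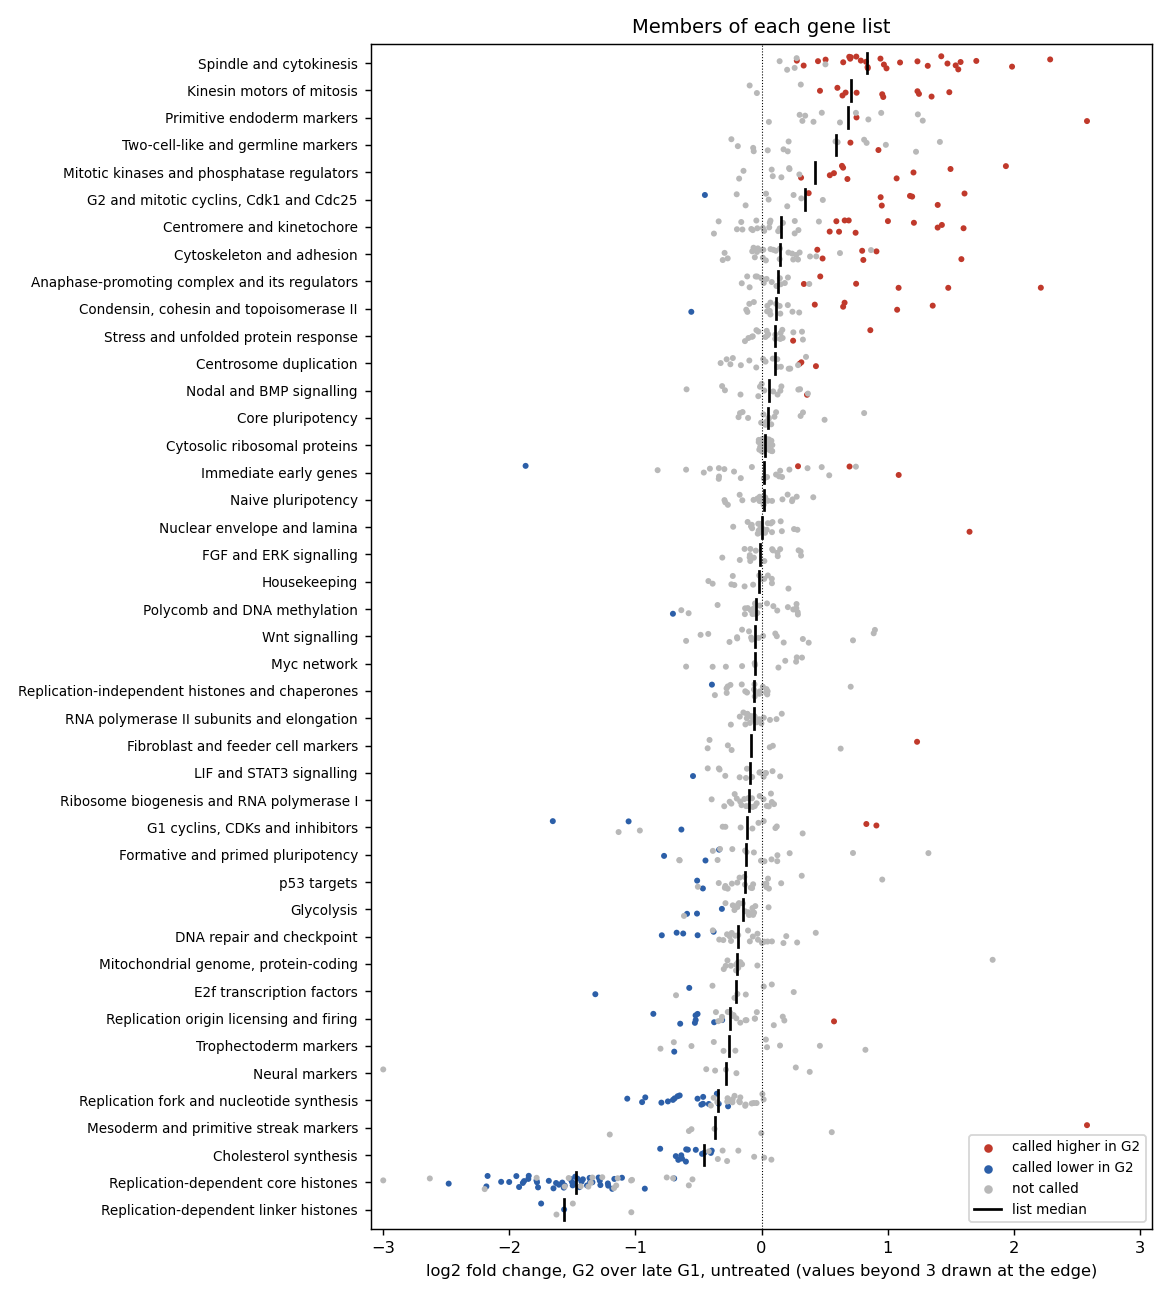
Each point is a gene's log2 fold change in untreated G2 over late G1 (x axis), in rows by gene list ordered by median, coloured by whether it was called higher or lower in G2 (edgeR, adjusted p under 0.05). Spindle and kinesin genes lie highest (medians 0.83 and 0.71), and core and linker histones lowest (medians -1.47 and -1.57).

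Genes that build the spindle and divide the cell rose almost throughout. Of 32 spindle and cytokinesis genes, 27 were higher in G2, 0 were lower and all 32 had a positive log2 fold change, with a median of 0.83. All 32 were higher under the replicate block. Nusap1, which bundles spindle microtubules, had 108, 111 and 98.5 CPM in the G2 libraries, against 21.2, 23.8 and 19.9 CPM in the late G1 libraries. Every G2 library was more than 4 times any late G1 library (log2 fold change 2.29 ± 0.13 SE, adjusted p = 5.86e-09). Aspm, a protein of the spindle poles, had 381, 407 and 405 CPM in the G2 libraries, against 135, 138 and 132 CPM in the late G1 libraries, and its libraries lay within a narrow band in each phase (log2 fold change 1.56 ± 0.081 SE, adjusted p = 2.66e-09). Fam83d, which brings casein kinase to the spindle, had 70.2, 61 and 60.2 CPM in the G2 libraries, against 17.9, 13.8 and 16.5 CPM in the late G1 libraries, with no overlap (log2 fold change 1.99 ± 0.13 SE, adjusted p = 3.05e-08). Prc1 crosslinks the microtubules of the central spindle. It averaged 248 ± 13.6 CPM in G2 and 85.2 ± 6.23 CPM in late G1 (SD, n = 3 each; log2 fold change 1.54 ± 0.11 SE, adjusted p = 5.13e-08). Ckap2l (1.58), Depdc1b (1.70) and Depdc1a (1.43) were also among the largest rises on the log2 scale. At the low end of the genes called stood Hjurp, the chaperone of centromeric histone, at a log2 fold change of 0.28.

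Mitotic motors followed the same pattern. Of 14 kinesins, 11 were higher and 0 lower in G2, with a median of 0.71, or 12 and 0 under the block. Kif23, a motor of the central spindle, had 78.3, 89.6 and 82.7 CPM in the G2 libraries, against 26.8, 33 and 29.5 CPM in the late G1 libraries, and the phases did not overlap (log2 fold change 1.49 ± 0.12 SE, adjusted p = 1.86e-07). Kif11, which pushes spindle poles apart, had 385, 359 and 322 CPM in the G2 libraries, against 167, 139.8 and 141 CPM in the late G1 libraries (log2 fold change 1.25 ± 0.12 SE, adjusted p = 3.23e-06). Both rose by more than 2-fold. Cenpe, which carries chromosomes to the spindle equator, rose by 1.35 on the log2 scale, Kif18a by 1.24, Kif4 by 0.97 and Kif2c, a microtubule depolymerase, by 0.96.

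The kinases and cyclins that drive entry into mitosis rose in part. Of 18 mitotic kinases and phosphatase regulators, 10 were higher and 0 lower (median 0.43), or 13 and 2 under the replicate block. Aurka, the kinase of centrosomes and spindle poles, had 193, 208 and 181 CPM in the G2 libraries, against 53.7, 56.1 and 41.9 CPM in the late G1 libraries. The lowest G2 library was over 3 times the highest late G1 library (log2 fold change 1.94 ± 0.13 SE, adjusted p = 3.55e-08). Plk1, which acts from mitotic entry to cytokinesis, averaged 102 ± 7.43 CPM in G2 and 36 ± 7.96 CPM in late G1 (log2 fold change 1.50 ± 0.20 SE, adjusted p = 0.000148). Members of the chromosomal passenger complex rose together, by 1.20 (Aurkb), 1.07 (Incenp) and 0.64 (Cdca8) on the log2 scale. Of 16 G2 cyclins, Cdk1 partners and Cdc25 phosphatases, 7 were higher and 1 was lower, or 11 and 2 under the replicate block. Ccnb1, the cyclin of mitotic entry, had 750.1, 714 and 687 CPM in the G2 libraries, against 347, 299 and 294 CPM in the late G1 libraries (log2 fold change 1.19 ± 0.098 SE, adjusted p = 2.54e-07), and its partner Cdk1 averaged 199.7 ± 16 CPM in G2 and 75.8 ± 9.5 CPM in late G1 (log2 fold change 1.40 ± 0.14 SE, adjusted p = 4.04e-06). Of the Cdc25 phosphatases that activate cyclin kinases, Cdc25b rose by 1.61 and Cdc25c by 0.95, whereas Cdc25a, which also acts at the G1/S transition, had 68.8, 69.5 and 71.1 CPM in the G2 libraries, against 98.4, 101 and 86.1 CPM in the late G1 libraries and fell (log2 fold change -0.45 ± 0.11 SE, adjusted p = 0.0166), a call lost without replicate 1 or 2 of either phase. Ccna2, the cyclin of S phase and G2, rose by only 0.37 (adjusted p = 0.0176). Ccnb2 was not called, at 70.2, 77.6 and 70.4 CPM in the G2 libraries, against 71.5, 77.3 and 63.9 CPM in the late G1 libraries (log2 fold change 0.04, adjusted p = 0.894). The activators of this wave were not called without the block either. Foxm1 had 23.7, 27.3 and 35 CPM in the G2 libraries, against 18.8, 24.5 and 25.9 CPM in the late G1 libraries with overlap (log2 fold change 0.32, adjusted p = 0.439). Mybl2, which encodes B-MYB, stood at -0.20 (adjusted p = 0.53). Under the replicate block Foxm1 passed as higher (adjusted p = 0.00908) and Mybl2 as lower (adjusted p = 0.00169).

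**Figure D2:**
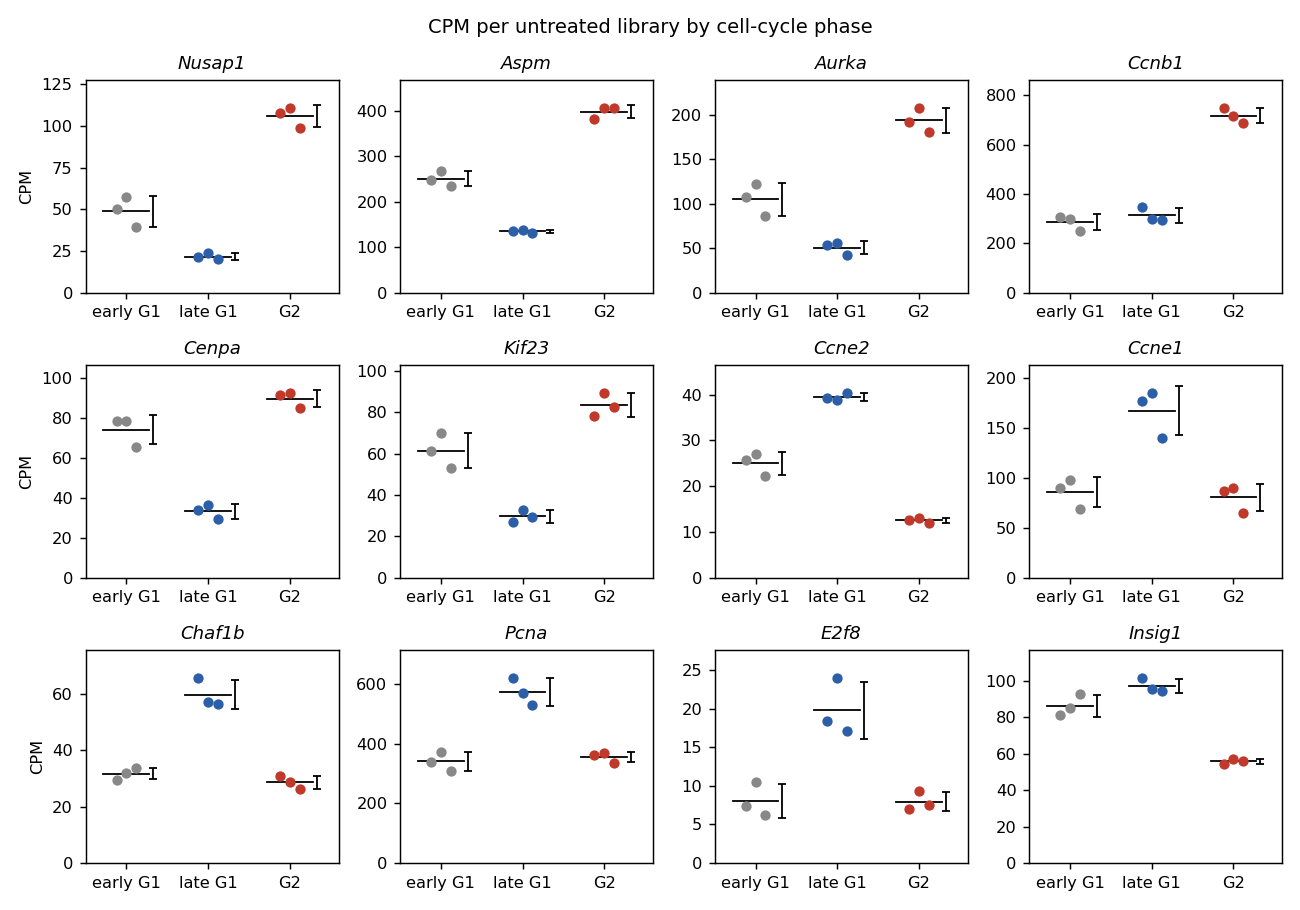
CPM of 12 genes (y axis, linear, from 0) in each untreated library by phase (x axis), with the mean as a line and the SD as a bar (n = 3). Nusap1, Aspm, Aurka, Ccnb1, Cenpa and Kif23 are higher in every G2 library than in any late G1 library, and Ccne2, Ccne1, Chaf1b, Pcna, E2f8 and Insig1 are lower in every G2 library.

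Machinery that acts later in mitosis, and chromosome structure, moved in fewer members. Among 22 genes of the anaphase-promoting complex and its regulators, 6 were higher and 0 lower (median 0.13), or 11 and 1 under the replicate block. Of the core subunits only Cdc27 was called (0.34, lost without 4 of the 6 libraries in turn), and the other 5 were enzymes, coactivators or checkpoint proteins. Ube2c, the ubiquitin-conjugating enzyme of the complex, had 74.8, 98 and 83.9 CPM in the G2 libraries, against 15.7, 22.7 and 16.9 CPM in the late G1 libraries (log2 fold change 2.21 ± 0.26 SE, adjusted p = 5.47e-05). The G2 libraries did not overlap those of late G1. Fzr1, the coactivator of late mitosis and G1, averaged 62 ± 1.83 CPM in G2 and 22.2 ± 2.01 CPM in late G1 (log2 fold change 1.48 ± 0.11 SE, adjusted p = 5.28e-08), and Cdc20, the coactivator of anaphase, rose by 0.75 (adjusted p = 0.00266). Bub3, a checkpoint protein, rose by 1.09 on the log2 scale. Among 32 centromere and kinetochore genes, 11 were higher and 0 lower (median 0.16), or 17 and 3 under the replicate block. Cenpa, the histone H3 variant that marks centromeres, had 91.6, 92.8 and 85 CPM in the G2 libraries, against 34.2, 36.4 and 29.3 CPM in the late G1 libraries (log2 fold change 1.43 ± 0.098 SE, adjusted p = 3.55e-08), and Cenpf averaged 652 ± 24.4 CPM in G2 and 215 ± 9.13 CPM in late G1 (log2 fold change 1.60 ± 0.13 SE, adjusted p = 2.77e-07). Of 21 genes for condensin, cohesin and topoisomerase II, 5 were higher and 1 lower, or 9 and 1 under the block. Top2a, which untangles sister chromatids, had 1224, 1180.1 and 1130.0 CPM in the G2 libraries, against 493, 423 and 463 CPM in the late G1 libraries (log2 fold change 1.36 ± 0.11 SE, adjusted p = 3e-07). The condensin ATPase Smc4 rose by 1.08, whereas the condensin II subunit Ncapg2 had 90.4, 86.2 and 93.7 CPM in the G2 libraries, against 138, 126 and 134 CPM in the late G1 libraries and fell (log2 fold change -0.56 ± 0.084 SE, adjusted p = 0.000391). Of 20 centrosome duplication genes, 3 were higher (Cep70, Cntrob and Cdk5rap2, by 0.43 at most), and 0 were called without G2 replicate 2 or 3 or without late G1 replicate 1 or 2. The block gave 6 higher and 5 lower, and 0 were called without replicate 3 of every untreated phase.

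Of 26 nuclear envelope genes 1 was called (3.85%, below the 5.04% of all genes tested). Under the replicate block 4 were higher and 1 lower, where 24.3% of all genes tested were called. Sun2, an inner nuclear membrane protein that links the nucleus to the cytoskeleton, had 20.8, 22 and 29.5 CPM in the G2 libraries, against 7.16, 6.48 and 9.48 CPM in the late G1 libraries (log2 fold change 1.65 ± 0.15 SE, adjusted p = 1.15e-06), with no overlap. The importin Kpna2, listed with the spindle genes because it carries spindle assembly factors, averaged 615 ± 43 CPM in G2 and 221 ± 20.1 CPM in late G1 (log2 fold change 1.47 ± 0.11 SE, adjusted p = 1.22e-07).

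Early G1, the phase that follows division, lay between the other phases for most of these genes. Of the 77 mitotic genes called higher in G2, the early G1 mean was between those of late G1 and G2 for 60, below both for 16 and above both for 1. Over all genes called higher, 76.1% lay between, against 30.3% of all genes tested. This contrast cannot show that early G1 is intermediate. Called genes were chosen for the gap between the same G2 and late G1 means, and a wider gap is more likely to contain the early G1 mean. Aspm averaged 250.3 CPM, Cenpa 74.3 CPM and Nusap1 48.8 CPM in early G1, each above late G1 and below G2. Kpna2, at 101 CPM in early G1, Prc1, at 45 CPM, and Top2a, at 208 CPM, were below both.

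Promoter sequence was not used to choose these genes, but the lists and motifs were chosen with earlier results of these data known. RefSeq windows of 300 bases, 250 before to 50 after the start site on GRCm38.p6, were found in the table for 59 of the 77 mitotic genes called higher, 311 of 435 symbols called higher, 231 of 371 called lower and 10342 of 15920 symbols tested. Too few matched for a check over the whole sets, so that is void and the shares describe the matched genes only. The CHR letters (TTTGAA or TTCGAA, either strand) stood in 78.0% of the 59, in 55.4% of all 121 matched mitotic list genes, in 33.8% of all 311 matched genes called higher, in 12.6% of 231 called lower and in 13.6% of the genes tested. The 59 are among the 311 and supply 46 of the 105 genes with a CHR there. The 33.8% is therefore not the share outside the mitotic lists. CCAAT on either strand stood in 84.7% of the 59, 64.5% of the 121, 55.0% of those called higher, 48.9% of those called lower and 38.9% of the genes tested, and both motifs together in 69.5%, 44.6%, 23.8%, 5.19% and 5.91%. Of the 58 CHR matches in mitotic genes called higher, 42 lay within 50 bases of the start site (72.4%), against 23.4% of matches in the genes tested. Over all 27025 windows of the table the shares were 19.4% for the CHR, 37.9% for CCAAT and 7.70% for both. Each motif was searched alone, and a match is a description of letters, not a measured binding site.

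**Figure D3:**
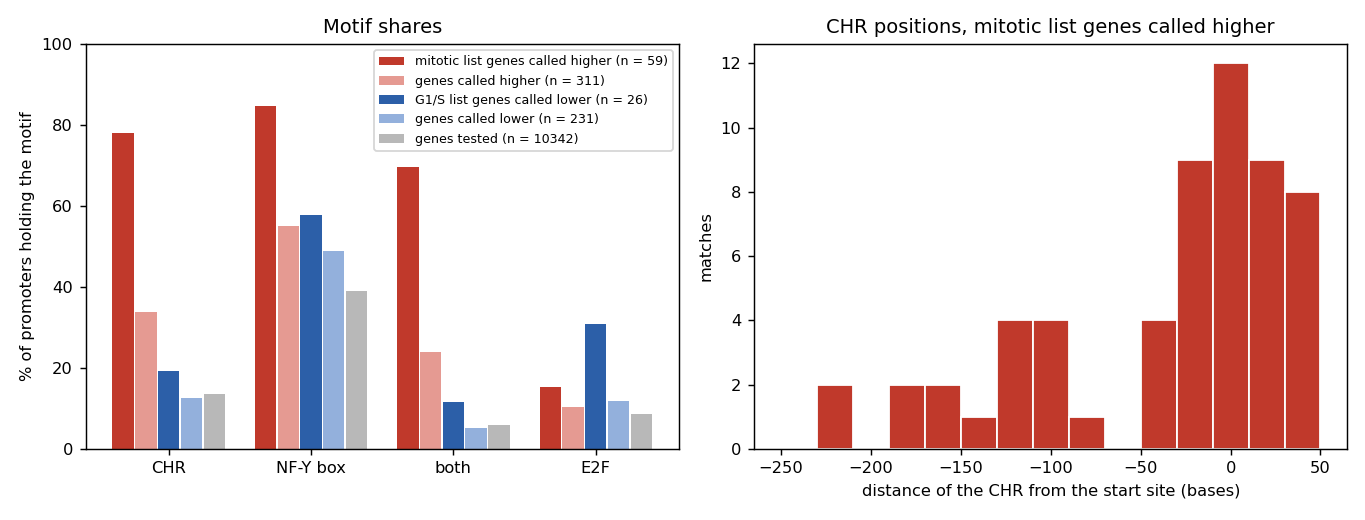
Left, the percentage of promoter windows (y axis) holding the CHR, the CCAAT letters bound by NF-Y, both, or the E2F letters, by gene set (n in the legend). Right, the number of CHR matches (y axis) by distance from the start site in bases (x axis) in mitotic genes called higher, most of them close to 0.

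The upstream 250 bases are shown for the 4 mitotic genes with the smallest p that are in the table, with CHR and CCAAT letters of either strand in capitals, 5′ to 3′ on the gene's strand.
Aspm (chr1:139454523-139454772, plus strand): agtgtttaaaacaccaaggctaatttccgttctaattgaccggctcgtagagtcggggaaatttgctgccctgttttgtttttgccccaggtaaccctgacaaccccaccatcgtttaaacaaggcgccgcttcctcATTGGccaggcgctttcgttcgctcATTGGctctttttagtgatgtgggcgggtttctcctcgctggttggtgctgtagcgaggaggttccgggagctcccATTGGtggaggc
Nusap1 (chr2:119618048-119618297, plus strand): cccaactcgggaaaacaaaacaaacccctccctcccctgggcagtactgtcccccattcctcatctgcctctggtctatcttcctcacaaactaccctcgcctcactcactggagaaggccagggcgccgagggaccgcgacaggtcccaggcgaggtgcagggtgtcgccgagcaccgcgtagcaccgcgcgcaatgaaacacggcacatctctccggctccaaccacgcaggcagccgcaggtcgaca
Fam83d (chr2:158767849-158768098, plus strand): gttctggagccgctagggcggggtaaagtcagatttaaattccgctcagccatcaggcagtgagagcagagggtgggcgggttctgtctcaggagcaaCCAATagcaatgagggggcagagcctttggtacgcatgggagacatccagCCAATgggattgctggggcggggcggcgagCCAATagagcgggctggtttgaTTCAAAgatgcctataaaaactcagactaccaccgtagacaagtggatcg
Cenpa (chr5:30666636-30666885, plus strand): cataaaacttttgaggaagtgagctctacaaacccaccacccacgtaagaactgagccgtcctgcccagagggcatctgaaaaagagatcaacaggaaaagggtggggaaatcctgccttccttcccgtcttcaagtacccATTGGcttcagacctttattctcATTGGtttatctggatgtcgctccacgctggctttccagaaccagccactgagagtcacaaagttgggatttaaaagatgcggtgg
Aspm and Fam83d each hold 3 CCAAT matches and Cenpa holds 2, all within 152 bases of the start, and Fam83d holds a CHR at -50. In Aspm and Cenpa the CHR lies just past the start, at 7 and 17, as 30-base stretches show with the CHR in capitals.
Aspm (chr1:139454767-139454796, plus strand): ggaggcgcgataTTTGAAccgagcaaaagc
Cenpa (chr5:30666890-30666919, plus strand): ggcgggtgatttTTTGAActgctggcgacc
The Nusap1 window holds neither motif, which says only that these letters are not in it.

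Many genes of the G1/S transition and of DNA replication were lower in G2. Ccne2, a cyclin that partners Cdk2 to start replication, had 12.6, 13 and 12 CPM in the G2 libraries, against 39.3, 38.7 and 40.4 CPM in the late G1 libraries. Each phase varied little, and the highest G2 library was below the lowest late G1 library (log2 fold change -1.66 ± 0.099 SE, adjusted p = 7.58e-09). Ccne1 had 86.7, 89.9 and 65 CPM in the G2 libraries, against 177, 185 and 139.8 CPM in the late G1 libraries (log2 fold change -1.05 ± 0.14 SE, adjusted p = 7.01e-05), and Cdk2 averaged 41.4 ± 1.81 CPM in G2 and 64.3 ± 3.61 CPM in late G1 (log2 fold change -0.64 ± 0.086 SE, adjusted p = 0.000115). All were lower without overlap. Among 16 G1 cyclins, CDKs and inhibitors, these 3 were lower and 2 inhibitors were higher: Cdkn1b, which encodes p27, had 20.6, 22.9 and 17.6 CPM in the G2 libraries, against 11.7, 11.4 and 9.36 CPM in the late G1 libraries (log2 fold change 0.91 ± 0.12 SE, adjusted p = 5.74e-05), and Cdkn2d rose by 0.83. The replicate block gave 4 higher and 6 lower. The D cyclins were not called without the block. Ccnd1 had 96, 104 and 64.5 CPM in the G2 libraries, against 89.6, 97 and 56.9 CPM in the late G1 libraries with overlap (log2 fold change 0.12, adjusted p = 0.883, or 0.0421 under the replicate block), and Ccnd3 stood at -0.31 (adjusted p = 0.38), or -0.30 with adjusted p = 2.23e-05 under the block. Of 10 E2f and partner genes, E2f8, an atypical repressor that is itself an E2F target, had 7.04, 9.31 and 7.49 CPM in the G2 libraries, against 18.4, 24 and 17 CPM in the late G1 libraries and fell (log2 fold change -1.32 ± 0.24 SE, adjusted p = 0.00279). E2f6, another repressor, fell by 0.57 (adjusted p = 0.016), a call lost without 4 of the 6 libraries in turn, and the block gave 1 higher and 5 lower E2f genes. The activator E2f1 had 15.8, 17.5 and 22.5 CPM in the G2 libraries, against 19, 21.9 and 22.7 CPM in the late G1 libraries and was not called (adjusted p = 0.567).

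At the replication fork 17 of 36 genes were lower and 0 higher in G2 (median -0.35), or 28 lower under the replicate block. Leaving out 1 library gave 10 to 16 lower, with 10 without G2 replicate 2 and 11 without G2 replicate 1, G2 replicate 3 or late G1 replicate 1. Chaf1b, a subunit of the complex that loads histones onto new DNA, had 30.7, 28.8 and 26.1 CPM in the G2 libraries, against 65.7, 57 and 56.5 CPM in the late G1 libraries (log2 fold change -1.06 ± 0.091 SE, adjusted p = 3.61e-07). Ung removes uracil from DNA. It had 55.7, 59.9 and 56 CPM in the G2 libraries, against 114, 123 and 93.8 CPM in the late G1 libraries (log2 fold change -0.95 ± 0.092 SE, adjusted p = 2e-06). Pcna, the sliding clamp, had 364, 369 and 336 CPM in the G2 libraries, against 622, 569.8 and 532 CPM in the late G1 libraries (log2 fold change -0.69 ± 0.093 SE, adjusted p = 0.000114), and its processed copy Pcna-ps2, which may share reads with it, also fell (-0.86). Every late G1 library of these genes exceeded every G2 library. Nucleotide synthesis genes were among them, with Rrm2 at -0.79, Dut at -0.46 and Tk1 at -0.34 on the log2 scale. Of 27 genes for licensing and firing of origins, 8 were lower and 1 was higher, with 5 lower without late G1 replicate 1 and 19 lower and 3 higher under the block. Cdc6, which loads the helicase, averaged 66.4 ± 7.28 CPM in G2 and 120.3 ± 8.71 CPM in late G1 (log2 fold change -0.86 ± 0.12 SE, adjusted p = 0.000148), and helicase genes Mcm4 (-0.52), Mcm6 (-0.51) and Mcm3 (-0.31) fell. The subunits of the kinase that fires origins moved apart: Dbf4, the activating subunit, had 167, 176 and 166 CPM in the G2 libraries, against 113, 116 and 113 CPM in the late G1 libraries and rose (log2 fold change 0.57 ± 0.071 SE, adjusted p = 3.71e-05), while the catalytic subunit Cdc7 had 36.8, 35.4 and 36.6 CPM in the G2 libraries, against 50.1, 44.6 and 46.4 CPM in the late G1 libraries and fell (log2 fold change -0.38 ± 0.081 SE, adjusted p = 0.00914). Of 27 repair and checkpoint genes, 5 were lower (18.5%, against 2.32% of all genes tested) and 0 were higher. These 5 were Rad54b (-0.79, lost without 3 of the 6 libraries in turn), Brca1 (-0.67), Rad51ap1 (-0.62), Exo1 (-0.51) and Atm (-0.38). Without replicate 3 of every untreated phase 3 were lower, and under the block 14 were lower and 4 higher.

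The position of early G1 was also counted for these genes. Of the 30 G1/S genes called lower in G2, the early G1 mean was between late G1 and G2 for 14 and below both for 16. Over all genes called lower, 61.5% lay between and 30.5% below both, against 30.3% and 34.6% of all genes tested. These genes were likewise chosen for the gap between the G2 and late G1 means, and whether their positions differ was not tested. Ccne2 was intermediate (25 CPM), whereas E2f8 averaged 7.94 CPM in G2 and 7.98 CPM in early G1, and Ccne1 80.5 CPM in G2 and 85.7 CPM in early G1. The E2F letters (TTTNNCGC, either strand) stood in 30.8% of 26 matched G1/S genes called lower, in 36.2% of all 69 matched G1/S list genes, in 11.7% of all genes called lower, in 8.52% of the genes tested and in 5.27% of all windows.

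Replication-dependent histone mRNAs were the group with the lowest medians. The 64 core histone genes together took 0.348%, 0.554% and 0.479% of counts in the G2 libraries, against 0.863%, 1.52% and 1.16% in the late G1 libraries. The lowest late G1 library was above the highest G2 library, and early G1 held 0.370% ± 0.038 (SD, n = 3). The log2 ratio of the means was -1.36 (two-sided exact permutation p = 0.1, the smallest that 3 against 3 libraries allow). Of these 64 genes, 44 were lower in G2 (68.8%), all 64 had a negative log2 fold change and the median was -1.47, with 56 lower under the replicate block. The number called fell to 18 without G2 replicate 1, 19 without late G1 replicate 2, 21 without G2 replicate 3, 25 without late G1 replicate 3, and 7 without replicate 3 of every untreated phase, while the log2 ratio of the shares stayed between -1.54 and -1.13 when 1 library was left out. Hist1h4h, an H4 gene, had 260.2, 301 and 296 CPM in the G2 libraries, against 618, 725 and 653 CPM in the late G1 libraries (log2 fold change -1.22 ± 0.15 SE, adjusted p = 4.54e-05). Hist1h2bm, an H2B gene, had 27.6, 47.9 and 42.5 CPM in the G2 libraries, against 96.5, 192 and 137 CPM in the late G1 libraries (log2 fold change -1.85 ± 0.32 SE, adjusted p = 0.00322). Both were separate between phases, and the late G1 libraries of Hist1h2bm spread more widely. Without replicate 3 of every untreated phase, Hist1h2bm missed the threshold (adjusted p = 0.0526). Of the 15 largest falls among called, non-overlapping genes averaging at least 1 on the log2 CPM scale, all but Egr1 were histone genes, from Hist1h2bq (-2.18) to Hist1h1b (-1.75). All 15 lost their call without replicate 3 of every untreated phase. With 1 library left out, Hist1h2bq, Hist1h2bm and Hist1h2bf kept it throughout, whereas Hist1h2ap, Hist1h2ak and Egr1 lost it without 5 of the 6 libraries in turn. These genes are near-identical copies, so a single gene's value is uncertain, and the summed share is the firmer measure. The 5 linker histone genes took 0.0334%, 0.0641% and 0.0531% of counts in G2, against 0.0918%, 0.194% and 0.143% in late G1 (log2 ratio -1.51, exact permutation p = 0.1), with 2 of the 5 called lower and all 5 under the replicate block. Slbp, which binds the stem loop that ends these mRNAs, fell with them, at 99.5, 89 and 90.2 CPM in the G2 libraries, against 198, 166 and 164 CPM in the late G1 libraries (log2 fold change -0.92 ± 0.11 SE, adjusted p = 1.62e-05). Replication-independent histones and their chaperones had 1 of 21 called, Casp8ap2, a factor of histone gene transcription (-0.39), against 6 lower under the replicate block. These mRNAs are known to accumulate in S phase, and whether the late G1 sort held S-phase cells was not tested.

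**Figure D4:**
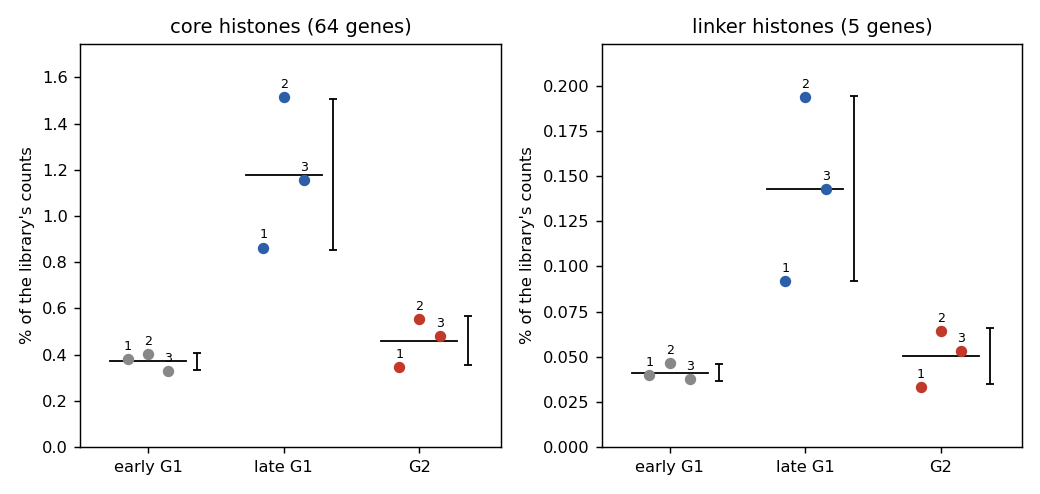
Percentage of each untreated library's counts (y axis, from 0) taken by 64 core and 5 linker histone genes, by phase (x axis), with replicate numbers, the mean as a line and the SD as a bar (n = 3). All 3 late G1 libraries lie above all G2 and early G1 libraries.

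Outside the cell-cycle lists, most genes of sterol synthesis were lower in G2. Of 21 cholesterol synthesis genes, 13 were lower and 0 higher (61.9% against 2.32% of all genes tested, median -0.45), with 9 to 12 lower when 1 library was left out and 17 under the replicate block. Insig1, which retains the SREBP factors in the endoplasmic reticulum and is also their target, had 54.4, 56.9 and 56 CPM in the G2 libraries, against 102, 95.8 and 94.5 CPM in the late G1 libraries. The libraries of each phase lay close together and far apart between phases (log2 fold change -0.80 ± 0.082 SE, adjusted p = 4.01e-06). Idi1, which isomerises isopentenyl units, averaged 61 ± 2.99 CPM in G2 and 96.3 ± 5.51 CPM in late G1 (log2 fold change -0.66 ± 0.089 SE, adjusted p = 0.000105), and Sqle, which oxidises squalene, averaged 66.9 ± 3.72 CPM in G2 and 92.8 ± 1.31 CPM in late G1 (log2 fold change -0.47 ± 0.08 SE, adjusted p = 0.00129). The regulator Srebf2 was not called, at 79.2, 78.8 and 108 CPM in the G2 libraries, against 77.9, 91.2 and 108 CPM in the late G1 libraries (adjusted p = 0.916). Early G1 means lay between late G1 and G2 for 12 of the 13, against 61.5% of all genes called lower. These genes too were chosen for the gap between the G2 and late G1 means. The count therefore cannot show that early G1 is intermediate. Fatty acid desaturases, chosen after their values were seen, were lower too: Scd2 had 192, 215 and 186 CPM in the G2 libraries, against 364, 399 and 341 CPM in the late G1 libraries (log2 fold change -0.90 ± 0.093 SE, adjusted p = 4.75e-06), and Scd1 (-0.67), Fads2 (-0.68) and Fads1 (-0.49) fell on the log2 scale. Of 21 glycolysis genes 3 were lower, the glucose transporter Slc2a1 (-0.59), the lactate transporter Slc16a1 (-0.51) and Pfkm (-0.31, lost without 5 of the 6 libraries in turn), and 0 were higher. The block gave 13 lower.

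Some contractile and actin-binding genes were higher in G2. Of 33 cytoskeleton and adhesion genes, 6 were higher (18.2%, against 2.72% of all genes tested) and 0 lower (median 0.15). Under the replicate block 16 were higher and 2 lower, against 11.7% and 12.6% of all genes tested. Myl9, a myosin light chain, had 4.91, 6.78 and 5.5 CPM in the G2 libraries, against 2.04, 1.54 and 2.15 CPM in the late G1 libraries, with no overlap (log2 fold change 1.58 ± 0.19 SE, adjusted p = 3.23e-05). Tpm1, a tropomyosin, had 58.5, 63.1 and 65.2 CPM in the G2 libraries, against 37, 34.1 and 35.7 CPM in the late G1 libraries (log2 fold change 0.81 ± 0.088 SE, adjusted p = 8.78e-06), and Cnn2, a calponin, averaged 59.3 ± 2.83 CPM in G2 and 34.1 ± 2.65 CPM in late G1 (log2 fold change 0.80 ± 0.098 SE, adjusted p = 3.49e-05). The tubulins Tuba1c and Tubb4b, which have close copies, rose by 0.91 and 0.48. Actb had 2073, 2326 and 1799 CPM in the G2 libraries, against 1798, 2071 and 1476 CPM in the late G1 libraries with overlap and was not called (adjusted p = 0.528, or 3.5e-05 under the block). Srf, the transcription factor of many contractile genes, rose among the immediate early genes (69, 80.5 and 94.6 CPM in the G2 libraries, against 46.6, 53.9 and 49.9 CPM in the late G1 libraries; log2 fold change 0.70 ± 0.13 SE, adjusted p = 0.00327), a call lost without replicate 3 of every untreated phase (adjusted p = 0.0557). Fhl2, a LIM-domain protein, had 5.97, 4.22 and 7.16 CPM in the G2 libraries, against 1.35, 1.8 and 1.79 CPM in the late G1 libraries (log2 fold change 1.81 ± 0.35 SE, adjusted p = 0.00404). Smooth muscle genes Tagln and Smtn, chosen after their values were seen, rose by 1.10 and 1.02 on the log2 scale (adjusted p = 0.00991 and 0.00983). Whether the rise of Srf bears on any of these genes was not tested.

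Immediate early genes did not move as a group. Of 27, 3 were higher and 1 was lower (14.8% called, against 5.04% of all genes tested), with a median of 0.020. Without replicate 3 of every untreated phase, 1 was higher. The replicate block gave 5 higher and 7 lower. Klf6, a zinc finger factor, had 54, 58.6 and 63 CPM in the G2 libraries, against 25.8, 25 and 31.9 CPM in the late G1 libraries (log2 fold change 1.09 ± 0.14 SE, adjusted p = 9.2e-05). Egr1 had 0.71, 1.44 and 1.88 CPM in the G2 libraries, against 2.33, 4.01 and 8.47 CPM in the late G1 libraries, a low level in both phases (log2 fold change -1.87 ± 0.48 SE, adjusted p = 0.0327), and its call was lost without 5 of the 6 libraries in turn. Fos (-0.41, adjusted p = 0.419, or 0.0238 under the block) and Jun (0.02, adjusted p = 0.965) were not called.

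In untreated cells the pluripotency network was not called in either direction without the block. Of 18 core and 21 naive pluripotency genes, 0 were called by edgeR, with medians of 0.053 and 0.017, and the block called 3 higher and 3 lower core genes and 5 higher and 4 lower naive ones. In auxin-treated cells, without the block, 3 naive genes were called higher in G2 and 0 lower, and 0 core genes were called. Sox2 had 277, 322 and 368 CPM in the G2 libraries, against 291, 393 and 389 CPM in the late G1 libraries, and the phases overlapped (log2 fold change -0.15 ± 0.14 SE, adjusted p = 0.659). Pou5f1, which encodes Oct4, had 1021, 933 and 749 CPM in the G2 libraries, against 1092, 979 and 839 CPM in the late G1 libraries (adjusted p = 0.752). Nanog averaged 214 ± 14 CPM in G2 and 207 ± 8.47 CPM in late G1 (adjusted p = 0.817) and Esrrb 337 ± 28.6 CPM in G2 and 375 ± 49.2 CPM in late G1 (adjusted p = 0.577). Under the replicate block Sox2 (-0.15, adjusted p = 0.014), Pou5f1 (-0.11, 0.0262) and Esrrb (-0.15, 0.0136) passed as slightly lower in G2 and Nanog did not (0.05, 0.414). Of the naive genes, Tfcp2l1 came closest to a call, at 499, 552 and 514 CPM in the G2 libraries, against 622, 697 and 591 CPM in the late G1 libraries (log2 fold change -0.29 ± 0.082 SE, adjusted p = 0.0505, or 2.02e-06 under the block), and 1 naive gene was called lower without late G1 replicate 3. Of 20 formative and primed genes 3 were lower, Tead2 (-0.34), Lin28b (-0.44) and an entry for Pou3f1 (-0.77), and the last 2 lost their call without 5 and 6 of the 6 libraries in turn. The block gave 6 lower and 2 higher.

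Markers of other cell types were detected. The 14 primitive endoderm markers tested all had a positive log2 fold change (median 0.69), 2 of them called, Dab2 (8.16, 7.8 and 7.93 CPM in the G2 libraries, against 5.55, 4.41 and 4.17 CPM in the late G1 libraries; log2 fold change 0.75 ± 0.17 SE, adjusted p = 0.0103) and Foxa2, at under 1 CPM in every library (log2 fold change 2.58 ± 0.65 SE, adjusted p = 0.0249). Their summed level was 455 to 514 CPM in G2 and 365 to 419 CPM in late G1, most of it from Sparc (161 ± 23.6 CPM in G2 and 155 ± 18.5 CPM in late G1), Lamb1 and Lama1. Defining factors were scarce and not called. Gata4 had 1.06, 1.44 and 0.848 CPM in the G2 libraries, against 0.489, 0.702 and 0.546 CPM in the late G1 libraries. Gata6 had 1.55, 2.49 and 1.44 CPM in the G2 libraries, against 1.49, 1.37 and 1.44 CPM in the late G1 libraries. Sox17 had 1.9, 1.58 and 0.996 CPM in the G2 libraries, against 0.92, 0.501 and 0.39 CPM in the late G1 libraries, and only Gata6 overlapped between phases. Under the replicate block 11 of the 14 were higher in G2, 0 were called without late G1 replicate 2 and 1 without G2 replicate 2 or late G1 replicate 3, 0 were called without replicate 3 of every untreated phase, and in auxin-treated cells 0 were called (median 0.46). Their part in the other differences was not tested. Of 17 tested 2-cell-like and germline markers, Zscan4c (0.93, libraries overlapping) and Zscan4e (0.70), near-identical copies, were higher, and 0 were called without either of G2 replicates 1 and 2 or late G1 replicates 2 and 3 (5 higher and 1 lower under the block). Without replicate 3 of every untreated phase, 1 was called. Of the 12 trophectoderm, 7 mesoderm, 7 neural and 8 fibroblast markers tested, 1, 1, 0 and 1 were called: Tfap2c lower (-0.69), Foxa2 again and Twist1 higher (1.23). Tfap2c lost its call without each library in turn, Foxa2 without G2 replicate 2 or late G1 replicate 2 or 3, and Twist1 without G2 replicate 1 or late G1 replicate 1 or 2. Tfap2c and Foxa2 also lost it without replicate 3 of every untreated phase. The block gave 0, 2, 1 and 1 higher and 3, 2, 2 and 0 lower in these 4 lists.

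A few genes of other lists were called, at 4% to 9.52% of a list, against 5.04% of all genes tested. Of 21 stress genes Hspa1b (0.86) and Atf4 (0.25) were higher, and of 23 p53 targets Pmaip1 (-0.51) and Ddit4 (-0.47) were lower; all but Hspa1b lost their call without at least 3 of the 6 libraries in turn. Skil, of 16 Nodal and BMP genes, rose by 0.36, a call lost without 4 of the 6 libraries in turn, and Icam1, of 16 LIF and STAT3 genes, stood at -0.54. Uhrf1, which maintains DNA methylation behind the fork, fell alone among 25 Polycomb and DNA methylation genes (-0.70, adjusted p = 0.00366). Under the replicate block these 5 lists had 9, 2, 3, 0 and 3 higher and 0, 11, 3, 6 and 5 lower. Over all genes tested the block called 11.7% higher and 12.6% lower. Several other lists had 0 calls in edgeR. All 47 cytosolic ribosomal protein genes stayed within -0.022 and 0.086 on the log2 scale, and together took 4.57%, 4.15% and 3.89% of counts in G2, against 4.48%, 3.86% and 3.85% in late G1. The 13 protein-coding genes of mitochondrial DNA took 0.591% ± 0.11 in G2 and 0.663% ± 0.10 in late G1 (SD, n = 3 each, exact permutation p = 0.4), and the block called 2 of them lower. Their log2 fold changes ran from -0.30 to 1.83, with 1 of the 13 positive. RNA polymerase II (20 genes), ribosome biogenesis (24), the Myc network (11), FGF signalling (18), Wnt signalling (20) and housekeeping genes (15) likewise had 0 called, with medians of -0.063, -0.098, -0.051, -0.012, -0.050 and -0.018. The block called 1, 0, 1, 4, 2 and 1 of them higher and 4, 10, 2, 1, 5 and 5 lower. At an unadjusted p under 0.05, 2786 of all genes tested passed.

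Among non-overlapping genes averaging at least 1 on the log2 CPM scale, the largest rise was of Prr11, a gene in none of the lists, at 16.1, 16.8 and 19 CPM in the G2 libraries, against 3.48, 3.71 and 3.08 CPM in the late G1 libraries (log2 fold change 2.33 ± 0.13 SE, adjusted p = 5.86e-09). It was low in all late G1 libraries and intermediate in early G1 (9.22 CPM). Arl6ip1, a protein that shapes endoplasmic reticulum membranes, averaged 407 ± 27.2 CPM in G2 and 118 ± 12.5 CPM in late G1 (log2 fold change 1.79 ± 0.13 SE, adjusted p = 9.13e-08), and Fam64a rose by 1.60. Of genes chosen after their values were seen, the long noncoding RNA Malat1 had 5111, 5893 and 9064 CPM in the G2 libraries, against 2685, 3200.3 and 5269 CPM in the late G1 libraries, with overlap between phases and a wide spread within them (log2 fold change 0.85 ± 0.22 SE, adjusted p = 0.0343). Vash2, an enzyme that trims tubulin tails, had 2.48, 2.39 and 2.18 CPM in the G2 libraries, against 8.22, 7.98 and 6.98 CPM in the late G1 libraries and fell (log2 fold change -1.72 ± 0.15 SE, adjusted p = 5.78e-07), as did Fam111a, a replication-linked protease (38.3, 30.9 and 24.7 CPM in the G2 libraries, against 88.1, 72 and 68.2 CPM in the late G1 libraries; log2 fold change -1.28 ± 0.15 SE, adjusted p = 2.81e-05).

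The same phases were compared in auxin-treated cells, in 6 libraries that share none with those above. There 557 genes were higher and 389 lower in G2 than in late G1 (3.48% and 2.43% of genes tested, 5.91% in all). Of the 436 genes higher in untreated G2, 323 were also higher under auxin (74.1%, or 58.0% of the 557), and 433 had the same sign. Of the 371 lower genes, 264 were also lower (71.2%, or 67.9% of the 389), and 368 had the same sign. No gene was called in opposite directions. Of the mitotic genes called higher 76 of 77 passed under auxin too, as did 30 of 30 G1/S genes, 46 of 46 core and linker histones and 13 of 13 cholesterol genes called lower. Nusap1 had a log2 fold change of 2.40, Ccne2 -1.58 and Insig1 -0.92 in auxin-treated cells, and Egr1 -1.51 (adjusted p = 0.0852). The difference between the untreated and auxin-treated contrasts was tested for all genes, and 0 were called by edgeR or DESeq2 (218 and 197 at an unadjusted p under 0.05), 0% of genes tested, which does not show that the contrasts are equal.

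**Figure D5:**
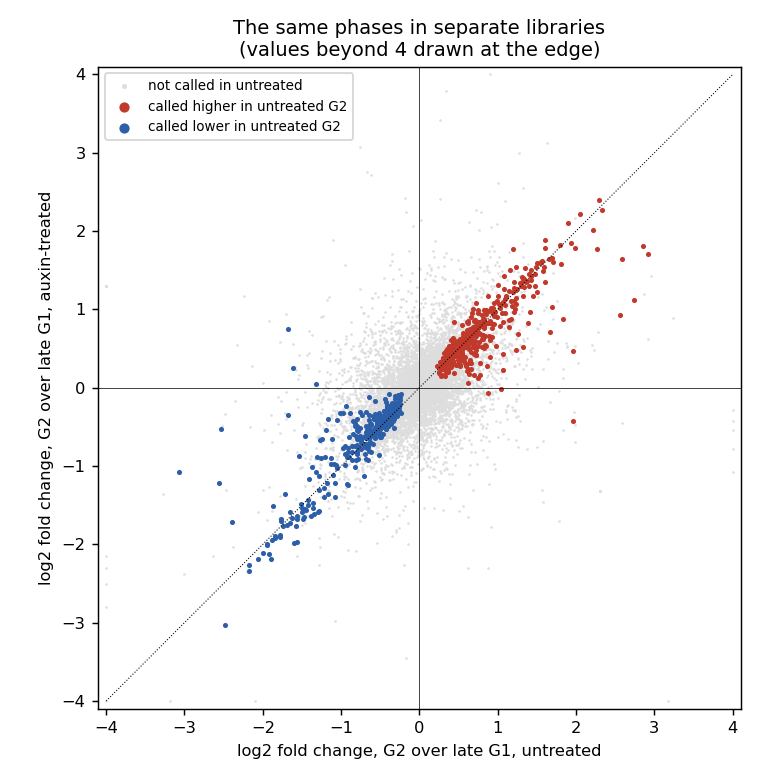
Log2 fold change in G2 over late G1 for each gene tested, in untreated cells (x axis) and auxin-treated cells (y axis), coloured by the untreated call, with the line of equality dotted. Of the genes called, 433 of 436 higher and 368 of 371 lower ones keep their sign on the y axis.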

How the data were processed

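Ribosome-depleted total RNA of sorted cells was sequenced. STAR, RSEM, Bowtie2, MACS2 and the mm9 build are listed in the submitters' processing notes, which give no roles or versions. The deposited table holds expected counts per gene, which the authors deposited rounded to whole numbers. Another deposited table gives TPM by the authors, used for alternatives. A table of chromatin profiles was not used. Whether counting used strand is not given in the sources used here.

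Genes kept by filterByExpr were TMM-scaled and tested with edgeR 4.0.16 (quasi-likelihood F test, robust, group means over 18 libraries, 12 residual degrees of freedom, biological coefficient of variation 0.14), with Benjamini-Hochberg adjustment over all genes. SE is the log2 fold change over the square root of F. The test was checked on simulated data drawn without a replicate effect, so the check does not cover deviations shared by libraries of the same number. DESeq2 1.42.0 and limma 3.58.1 were alternatives.

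Replicate numbers come from the sample titles. Libraries of the same number in G2 and late G1 deviated together (correlations 0.71, 0.43 and 0.74, against -0.65 to 0.16 between unlike numbers). They were taken as paired because all 3 were above 0.1, which G2 replicate 2 with late G1 replicate 1 (0.16) passed too. Deviations were taken from the mean of each group's 3 libraries. Positive values for like numbers therefore push those for unlike numbers down, and the contrast between them is partly fixed in advance. Unless the block is named, calls, SE and p-values come from the fit without this pairing, and blocked counts stand beside those of the lists.

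The gene lists, tests and promoter motifs were chosen with earlier results of these data known. Named genes are up to 15 each way with the largest change among called, non-overlapping genes of average log2 CPM of at least 1, up to 6 called members per list by smallest p, 2 by level where a list had none, and the study's factors, and every other gene named was chosen after its values were seen. Genes that share a symbol were matched by identifier. AC157822.1 took 16.4% to 18.8% of counts, 7SK 3.7% to 4.4% and RNase_MRP 2.4% to 4.0%.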

Additional observations from a re-analysis of the deposited data

How the results depend on the processing

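With the replicate number as a block over all 18 libraries, the untreated contrast called 1874 higher, 2021 lower and 3895 genes, and the auxin-treated contrast 2147, 2027 and 4174. The block on only the 9 untreated libraries called 2010, 1870 and 3880. The block over 18 libraries ended no call among the 807 genes, and that on 9 libraries ended 2, both of lower genes. Fitted on only the 6 libraries, 206 were higher, 154 lower and 360 called, and on the 9 untreated libraries 231 were lower. On log2(TPM + 1) in limma, 151 were higher, 51 lower and 202 called, so 74.8% of calls were higher against 54.0% in the report, and under auxin 135, 44 and 179. On log2(TPM + 0.1) the counts were 143, 44 and 187, with 76.5% higher, and under auxin 144, 43 and 187. With the replicates 3 of every untreated phase left out, 280 were higher, 214 lower and 494 called. Leaving out 1 library gave 249 to 358 higher, 187 to 277 lower and 445 to 621 in all. DESeq2, other scalings and other filters stayed within 1.5 times. The CHR as TTTGAA alone stood in 30.2%, 11.7% and 11.6% of promoters of genes called higher, lower and tested. The ribosomal share ratio ran from -0.0150 to 0.125 on the log2 scale, turning without G2 replicate 1. The cause of these shifts was not tested.

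Uncalled genes near 0 changed sign. Npm1 stood at 0.0015 under the block on 9 libraries and at 0.0322 and 0.0323 on the TPM scales, and Rpl7 at -0.0015 with DESeq2 and with its size factors. With 1 library left out, log2 fold changes ran from -0.101 to 0.0914 (Npm1), -0.091 to 0.139 (Rpl7), -0.0737 to 0.0901 (Dppa5a), -0.142 to 0.071 (Mga), -0.0056 to 0.14 (Eef1a1), -0.173 to 0.0168 (Polr2b), -0.199 to 0.0128 (Pou5f1) and -0.00298 to 0.21 (Fzd5). Depth limits genes of few CPM, such as Foxa2 and Egr1.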
